A study of Mus musculus with 18 samples.

Results

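The STAT transcription factors and the SOCS proteins that feed back on them were followed here as 9 genes of the bulk RNA-seq table, 6 STAT genes (*Stat2*, *Stat3*, *Stat4*, *Stat5a*, *Stat5b* and *Stat6*) and 3 feedback genes (*Socs1*, *Socs3* and *Cish*). The members were taken by their symbols, and the list was drawn up with earlier results of these data known. They made up 9 of the 16314 genes in the count table, and all 9 were among the 12021 genes that passed the filter on low counts. The libraries came from bone marrow-derived macrophages (BMDMs) of *Prep*+/- and *Prep*-/- littermate mice on a C57BL6/J background, where *Prep* encodes prolyl endopeptidase, a peptidase that cuts small peptides after proline. The comparison group was therefore heterozygous and not wild type, and the knockout was global, so other cells of these mice lacked the gene too. All 18 cultures had received M-CSF at 50 ng/ml for 7 days. BMDMs were then left unstimulated (M0), given LPS, a bacterial cell wall component, at 50 ng/ml for 24 h (M1), or given IL-4 and IL-13, each at 20 ng/ml, for 24 h (M2). Each of the 6 groups of genotype and state had 3 replicates, which the paper calls biological. Neither the labels nor the methods said whether each replicate came from its own mouse, so the p-values measure the spread between these cultures.

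STAT proteins wait in the cytoplasm until a cytokine receptor is engaged. Janus kinases bound to the receptor then phosphorylate them, and pairs of STAT proteins enter the nucleus and bind DNA. Type I interferon acts through STAT2 with IRF9, IL-6 and IL-10 through STAT3, IL-12 through STAT4, GM-CSF and IL-3 through STAT5A and STAT5B, and IL-4 and IL-13 through STAT6. The SOCS proteins are themselves products of STAT target genes and close the loop: SOCS1 and SOCS3 bind and inhibit Janus kinases or their receptors, and CIS, the product of *Cish*, occupies receptors that would otherwise recruit STAT5. In macrophages LPS reaches this pathway indirectly, through secreted interferon beta, IL-6 and IL-10, whereas IL-4 and IL-13 engage it directly.

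Of the members, 3 are neighbours in the mouse genome (GRCm39, GENCODE M39) and the others lie apart. *Stat5b* (chr11:100671556-100741589, minus strand), *Stat5a* (chr11:100750177-100776065, plus strand) and *Stat3* (chr11:100775924-100830450, minus strand) follow each other, with 8587 bases between the first pair and an overlap of 142 bases between the ends of *Stat5a* and *Stat3* on opposite strands. *Stat4* is at chr1:52026307-52151423 (plus strand). *Stat6* (chr10:127477821-127496862) and *Stat2* (chr10:128106352-128128735) are both on the plus strand of chromosome 10. *Socs1* is at chr16:10600104-10603875 (minus strand), *Socs3* at chr11:117856905-117860898 (minus strand) and *Cish* at chr9:107173225-107179983 (plus strand). The library kit kept the strand, but how the counting used it was not given in the sources used here, so reads in the overlap of *Stat5a* and *Stat3*, and in that of *Stat6* with *Nab2*, could have been assigned to either gene. The *Stat5a* and *Stat5b* transcripts were 90.9% identical over 2332 aligned bases, and *Stat4* shared 795 bases at 100% identity with the annotated gene *Gm28177*, which leaves their split of reads uncertain to that extent.

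The promoters of the 3 feedback genes and of *Stat2* are printed here because these genes rose most with stimulation and their windows hold sequences of the kind that STAT factors recognise. Each covers 250 bases before and 50 bases after the RefSeq start, 5′ to 3′ on the strand of the gene, with capitals for matches to 3 motifs searched on both strands. The motifs were the GAS site TTCNNNGAA, its form with a longer spacer TTCNNNNGAA, and the core of the interferon-stimulated response element (ISRE), GAAANNGAAA.
*Cish* (chr9:107173608-107173907, plus strand): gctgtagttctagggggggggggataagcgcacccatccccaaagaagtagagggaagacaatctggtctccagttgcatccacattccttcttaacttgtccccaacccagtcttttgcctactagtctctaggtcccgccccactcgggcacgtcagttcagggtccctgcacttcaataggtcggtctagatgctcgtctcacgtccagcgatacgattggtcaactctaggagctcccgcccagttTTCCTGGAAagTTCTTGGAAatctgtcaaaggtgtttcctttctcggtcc
*Socs1* (chr16:10603351-10603650, minus strand): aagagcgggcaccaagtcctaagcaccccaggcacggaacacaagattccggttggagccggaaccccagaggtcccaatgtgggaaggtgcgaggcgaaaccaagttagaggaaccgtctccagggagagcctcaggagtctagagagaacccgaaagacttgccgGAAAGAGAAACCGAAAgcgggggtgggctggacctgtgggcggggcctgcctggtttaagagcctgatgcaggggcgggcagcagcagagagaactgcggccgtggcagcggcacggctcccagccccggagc
*Socs3* (chr11:117860143-117860442, minus strand): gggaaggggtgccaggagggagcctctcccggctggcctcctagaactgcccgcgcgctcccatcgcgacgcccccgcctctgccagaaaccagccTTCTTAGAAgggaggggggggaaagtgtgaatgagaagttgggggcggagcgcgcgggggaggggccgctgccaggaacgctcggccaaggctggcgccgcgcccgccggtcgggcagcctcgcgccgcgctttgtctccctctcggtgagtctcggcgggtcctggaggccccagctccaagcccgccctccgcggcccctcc
*Stat2* (chr10:128106117-128106416, plus strand): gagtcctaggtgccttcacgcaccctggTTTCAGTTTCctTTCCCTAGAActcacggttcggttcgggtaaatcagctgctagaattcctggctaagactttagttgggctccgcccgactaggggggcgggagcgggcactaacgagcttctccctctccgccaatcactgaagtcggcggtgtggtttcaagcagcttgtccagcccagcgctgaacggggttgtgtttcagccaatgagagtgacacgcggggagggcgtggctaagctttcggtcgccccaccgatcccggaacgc
The *Cish* window held 2 GAS matches, at bases 1 to 9 and 12 to 20 after the start. At least 1 match to that motif was present in 8.3% of 32851 RefSeq promoters of this length, and 2 or more in 0.457%. The *Socs1* window held 2 ISRE core matches that overlap by 4 letters, at -83 to -74 and -77 to -68, against 3.44% of promoters with at least 1 and 0.225% with 2 or more. The *Socs3* window held 1 GAS match, at -154 to -146. The *Stat2* window held 1 ISRE core read from the other strand, at -222 to -213, next to 1 match to the longer GAS form at -210 to -201, a form found in 6.95% of promoters. Of the other members, a second start of *Stat4* had 1 ISRE core match, and *Stat3*, *Stat5a*, *Stat5b* and *Stat6* had no match in their windows. A match is a run of letters and not evidence of binding.

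Each library held between 19068237 and 22598279 counts, and the values below are counts scaled to a common library size with edgeR's TMM factors (normalized counts). The *Prep* gene itself checked the labels, with 638, 739 and 900.0 normalized counts in *Prep*+/- M0 against 42.2, 42.5 and 31.3 in *Prep*-/- M0, a 19.6-fold drop that was 13.4-fold in M1 and 13.7-fold in M2. Macrophage markers were high in every library, with a summed CPM, the count as a share of the scaled library total, of 10027 to 48180 over 8 genes. They also moved with genotype without overlap, from 19002 to 22408 in *Prep*+/- M0 and 30386 to 48180 in *Prep*-/- M0, from 45757 to 47208 and 31000 to 37043 with LPS, and from 10027 to 12203 and 13889 to 19565 with IL-4 and IL-13. Replicate 3 of *Prep*-/- M0 and replicate 3 of *Prep*-/- M2 stood apart from the other libraries of their groups. The chi-square of the difference in raw counts per degree of freedom, which would be near 1 for sampling noise alone, was 113 and 120.0 between the former and its replicates and 111 and 112 between the latter and its replicates, against 9.88 to 49.2 for all other pairs. Calls of members and named genes that changed without them are given beside the result. Scaling by the total count in place of TMM, tried after the data had been seen, lowered the all-gene median of the log2 fold change by 0.46 for M1 against M0 in *Prep*+/-, by 0.26 for the same contrast in *Prep*-/-, and by 0.14 and 0.15 for the knockout contrasts in M0 and M2. Of all genes called, the share that was higher moved with it from 44.4% to 17.4%, from 49.9% to 31.7%, from 47.2% to 33.4% and from 39.3% to 23.6% in those contrasts, so directions of small changes are relative to the TMM scale.

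Levels can be compared between genes only per length, here as CPM per kb of the canonical transcript. On that scale *Stat6* was the most abundant member in M0 and M2 of both genotypes, at 49.4 ± 5.34 in *Prep*+/- M0 (SD, n = 3), and varied by no more than 1.37-fold between any groups. *Stat3* followed in *Prep*+/- M0 at 16.1 ± 1.20, then *Stat5b* at 9.77 ± 0.900 and *Stat2* at 8.78 ± 1.03, neighbours whose libraries overlap. *Stat4* was rare throughout, between 0.0346 ± 0.0195 in *Prep*-/- M2 and 1.31 ± 0.0905 in *Prep*+/- M1. Of the feedback genes in *Prep*+/- M0, *Socs1* was at 0.336 ± 0.179 and *Cish* at 0.233 ± 0.0701, the lowest of the members, and *Socs3* was at 1.32 ± 0.233, above *Stat4*. In M1, *Socs3* became the most abundant member of all, at 157 ± 7.19 in *Prep*+/- and 229 ± 21.8 in *Prep*-/-.

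**Figure D1:**
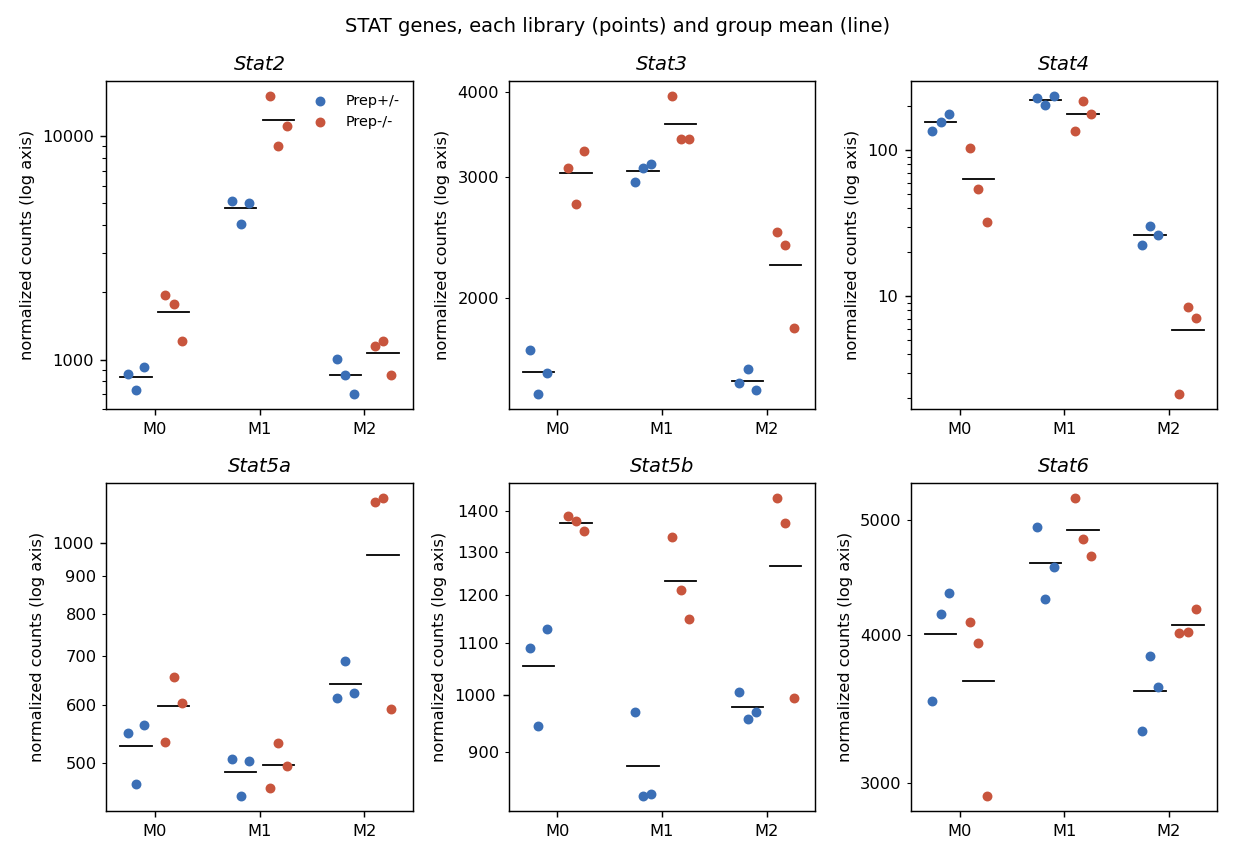
Normalized counts of the 6 STAT genes on a log axis, 1 panel per gene, by state. Points are single libraries, blue for Prep+/- and red for Prep-/-, and black lines are means of 3 libraries. Stat2 is highest in M1 of both genotypes, Stat4 is lowest in M2, and in Stat5a the lowest Prep-/- M2 point (592) lies below the rest of its group (1138 and 1153).

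The first question was what the loss of *Prep* did to these genes in each state. In unstimulated BMDMs, *Stat2*, *Stat3*, *Socs3* and *Cish* were higher in *Prep*-/- and *Stat4* was lower, by 1.95- to 3.67-fold. After LPS 2 of the 9 genes passed, *Stat2* and *Cish*, both higher in the knockout. After IL-4 and IL-13 only *Stat4* passed, and it was lower. The criteria for a call were a fold of more than 1.5 together with an edgeR quasi-likelihood adjusted p under 0.05. In M0 that gave 4 of 9 members higher and 1 lower, where 15.4% of all tested genes were called higher and 17.2% lower. LPS-treated cells had 2 members higher and 0 lower, beside 12.3% and 10.2% of all genes. For M2 the numbers were 0 and 1, beside 6.37% and 9.82%. At an unadjusted p under 0.05 in edgeR, 0 members were lower in M1 and 4 were higher in M2, and DESeq2 called 0 lower in M1 and 1 higher in M2. Over the 9 members the median log2 fold change was 0.86 without stimulation, 0.23 with LPS and 0.33 with IL-4 and IL-13, while over all genes it was 0.02, 0.04 and 0.03. In bulk samples, fewer cells of a type and less RNA per cell cannot be told apart.

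*Stat2* encodes a STAT that acts with IRF9 downstream of the type I interferon receptor. The *Prep*+/- M0 libraries held 859.5, 729.9 and 922 normalized counts of it and the *Prep*-/- M0 libraries 1938, 1768 and 1211. Every knockout library was above every control library, and the log2 fold change was 0.97 ± 0.21 (SE) with an adjusted p of 0.00122. With LPS, *Prep*+/- libraries held 5139, 4056 and 5029 and *Prep*-/- libraries 15112, 9029 and 11141, again without overlap. This was a 2.48-fold difference (log2 1.31 ± 0.21 (SE), adjusted p = 0.00031). In M2 the counts were 1003, 855 and 699 and 1153, 1206 and 849, which overlap, and the log2 fold change of 0.33 ± 0.21 (SE) did not pass (adjusted p = 0.274). Without the outlying replicate 3 of *Prep*-/- M0, the M0 difference in *Stat2* was 1.13 (adjusted p = 0.000329).

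*Stat3* carries IL-6 and IL-10 signals. It had 1678, 1446 and 1553 normalized counts in *Prep*+/- M0 against 3093, 2746 and 3282 in *Prep*-/- M0. The groups were far apart, with 1.95-fold more in the knockout (log2 0.96 ± 0.12 (SE), adjusted p = 9.08e-06), and the level of unstimulated knockout cells overlapped that of LPS-treated *Prep*+/- cells (2954, 3099 and 3134). In M1 the knockout had 3947, 3409.6 and 3416, all above the controls, but the log2 fold change of 0.23 ± 0.11 (SE) did not pass (adjusted p = 0.127). In M2 the counts were 1500.1, 1576 and 1467 and 2493, 2389 and 1809.8. Here the p-value passed and the fold of 1.47 fell just short of 1.5 (log2 0.56 ± 0.12 (SE), adjusted p = 0.00213). Without the outlying replicate 3 of *Prep*-/- M2 it was called, at 0.70 (adjusted p = 0.000115).

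*Stat4*, which answers IL-12 and is best known from T and natural killer cells, was the only member called lower in the knockout. It had 136, 157 and 176 normalized counts in *Prep*+/- M0 against 104, 54.0 and 32.2 in *Prep*-/- M0. The knockout libraries were widely spread but all lay below the controls (log2 -1.30 ± 0.32 (SE), adjusted p = 0.00293). In M1 the groups overlapped, with 227, 206 and 236 against 136, 218 and 177 (log2 -0.33 ± 0.30 (SE), adjusted p = 0.405). In M2 the level was low in both genotypes, with 22.6, 30.2 and 26.4 in *Prep*+/- and 2.13, 8.46 and 7.10 in *Prep*-/-. The latter rested on raw counts of 2, 8 and 7, and the difference was 4.39-fold (log2 -2.13 ± 0.48 (SE), adjusted p = 0.00387). Of 8 T cell markers listed, 4 had a row. Their sum was 1.32 to 1.89 CPM in *Prep*+/- M0 and 8.44 to 30.1 CPM in *Prep*-/- M0. The latter was nearly all *Cd4*, and *Cd3d* was at 0 counts in all of its libraries. Without *Cd4* the sums were low and overlapped, at 0.361 to 1.14 CPM and 0.474 to 0.712 CPM. In M2 they were 0.535 to 0.725 CPM in *Prep*+/- and 0.503 to 1.15 CPM in *Prep*-/-. Of 7 natural killer cell markers 3 had a row, and they summed to at most 1.299 CPM in any library. The part of such cells in the *Stat4* difference was not tested.

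*Stat5a* and *Stat5b*, which carry GM-CSF, IL-3 and related signals, were not called by genotype in any state. *Stat5b* had 1090.1, 944 and 1127 normalized counts in *Prep*+/- M0 against 1387, 1376 and 1351 in *Prep*-/- M0. The knockout log2 fold change was 0.38 ± 0.12 (SE) without stimulation (adjusted p = 0.0166), 0.49 ± 0.12 (SE) with LPS (adjusted p = 0.0063) and 0.37 ± 0.12 (SE) with IL-4 and IL-13 (adjusted p = 0.0341). The groups were apart in M0 and M1, while in M2 the knockout replicate 3 lay among the controls. All 3 differences passed on p and none on fold, and by total count scaling only that in M1 had an adjusted p under 0.05 (0.00708). *Stat5a* had 549.9, 469 and 563 in *Prep*+/- M0 against 534, 656 and 604 in *Prep*-/- M0, and 506, 451 and 504 and 463, 533 and 495 in M1, overlapping in both states. In M2 it had 614, 689 and 623 in *Prep*+/- and 1138, 1153 and 592 in *Prep*-/-, where 1 knockout library lay below all controls. The difference was just under the fold threshold (log2 0.58 ± 0.18 (SE), adjusted p = 0.028). It passed without that library, replicate 3, at 0.85 (adjusted p = 5.86e-05), and also with DESeq2, at 0.60 (adjusted p = 0.0131).

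*Stat6*, the mediator of IL-4 and IL-13, was not called in any of the 9 comparisons. In M0, *Prep*+/- libraries held 3519, 4167 and 4343 normalized counts and *Prep*-/- libraries 4103, 3938 and 2924. With LPS the values were 4935, 4292 and 4566 for *Prep*+/- and 5226, 4817 and 4668 for *Prep*-/-. With IL-4 and IL-13 they were 3315, 3840.0 and 3615 for *Prep*+/- and 4013, 4021 and 4208 for *Prep*-/-. The groups overlapped in M0 and M1, and in M2 the knockout libraries were all slightly higher. The knockout log2 fold change had a 95% interval of -0.39 to 0.12 without stimulation, -0.16 to 0.35 with LPS and -0.07 to 0.44 with IL-4 and IL-13, so a change over 1.5-fold in either direction lay outside all 3 intervals.

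**Figure D2:**
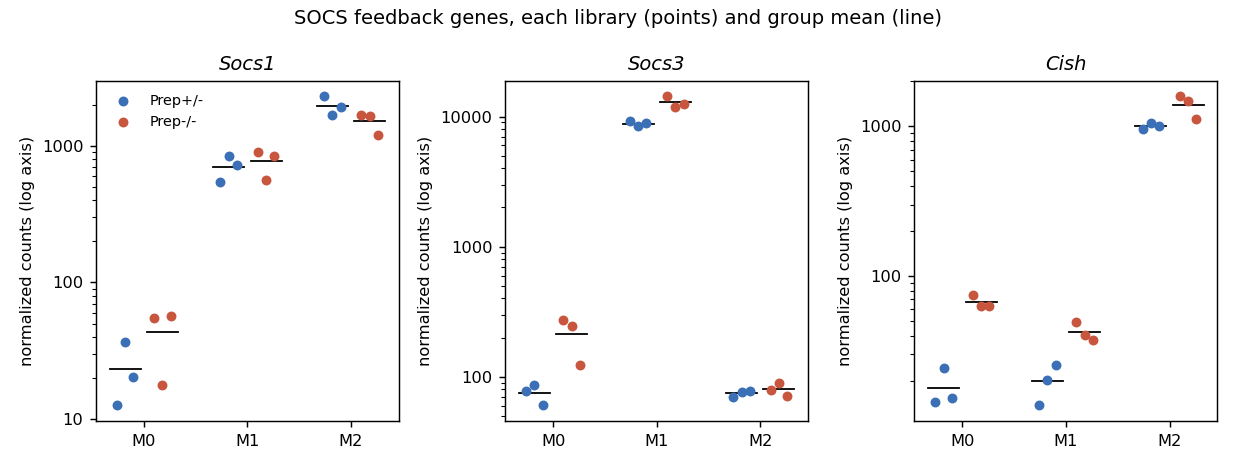
Normalized counts of Socs1, Socs3 and Cish on a log axis by state. Points are single libraries, blue for Prep+/- and red for Prep-/-, and black lines are means of 3 libraries. Socs3 is raised in M1 alone, Cish in M2 alone and Socs1 in both, and the Prep-/- points lie above the Prep+/- points for Socs3 and Cish in M0.

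Among the feedback genes, *Cish* had the largest fold difference between genotypes in M0. It is a target of STAT5 and STAT6 signalling. Unstimulated *Prep*+/- libraries held 14.5, 24.2 and 15.3 normalized counts and *Prep*-/- libraries 74.3, 62.9 and 63.5, a 3.67-fold difference with no overlap (log2 1.88 ± 0.22 (SE), adjusted p = 7.81e-06). In M1 it had 13.7, 20.2 and 25.6 and 49.5, 40.6 and 37.7, again apart and 2.15-fold higher in the knockout (log2 1.11 ± 0.25 (SE), adjusted p = 0.00299). These levels were low in absolute terms. In M2, where the gene was on in both genotypes, it had 962, 1057 and 999 and 1583, 1478 and 1126. The knockout was higher in all libraries, and the difference passed on p but not on fold (1.39-fold, log2 0.47 ± 0.16 (SE), adjusted p = 0.0353). Without replicate 3 of *Prep*-/- M2 it was called, at 0.62 (adjusted p = 0.00418).

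*Socs3*, which restrains signalling from the IL-6 receptor family, had 77.2, 86.0 and 60.2 normalized counts in *Prep*+/- M0 against 275, 245 and 123 in *Prep*-/- M0. The outlying replicate 3 was the lowest of the knockout libraries and still above all controls. The difference was 2.88-fold (log2 1.53 ± 0.22 (SE), adjusted p = 4.17e-05) and grew to 1.79 on the log2 scale without that library. In M1 the counts were 9189.9, 8388 and 8894 and 14261, 11901 and 12486. The groups did not overlap, and the 1.46-fold difference passed on p but not on fold (log2 0.55 ± 0.19 (SE), adjusted p = 0.0325). In M2 they were 70.4, 76.3 and 77.4 and 79.9, 88.9 and 71.0 and overlapped (log2 0.10 ± 0.23 (SE), adjusted p = 0.805), with a direction that turned under total count scaling (-0.05).

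*Socs1*, which blocks Janus kinases downstream of the interferon and IL-4 receptors, did not pass in any state. It had 12.5, 36.7 and 20.4 normalized counts in *Prep*+/- M0 against 55.2, 17.7 and 56.6 in *Prep*-/- M0. A low library in the knockout and a high one in the control overlapped, and the log2 fold change of 0.86 ± 0.42 (SE) had a wide interval of -0.04 to 1.75 (adjusted p = 0.104). DESeq2 called it, at 0.88 (adjusted p = 0.0389), as did edgeR without replicate 2 of *Prep*+/- M0 (1.33, adjusted p = 0.036) or without replicate 2 of *Prep*-/- M0 (1.25, adjusted p = 0.0131). In M1 it had 542, 839.9 and 729.7 and 899, 567 and 851, which overlap (log2 0.13 ± 0.29 (SE), adjusted p = 0.739). In M2 it had 2308, 1701 and 1926 and 1688, 1664 and 1214, with all knockout libraries the lower ones, and the log2 fold change of -0.38 ± 0.28 (SE) did not pass (adjusted p = 0.352).

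The library *Prep*-/- M2 replicate 3 was the lowest of its group for 7 of the 9 members, all but *Stat4* and *Stat6*. Without it, 4 of 9 members were called in M2 in place of 1, with *Stat3*, *Stat5a* and *Cish* higher and *Stat4* lower. The share of all genes called grew as well, to 8.61% higher and 13.0% lower. Without *Prep*-/- M0 replicate 3, the lowest of its group for 5 members, the M0 count stayed at 5, beside 16.1% of all genes higher and 18.5% lower. There *Stat3* stood at 0.89, *Stat4* at -1.002 and *Cish* at 1.90 on the log2 scale. Granulocyte and precursor markers moved with genotype in M0, with a sum over 9 genes of 21.96 to 32.9 CPM in *Prep*+/- and 46.7 to 111 CPM in *Prep*-/-, and in the reverse direction in M1, with 67.2 to 127 and 41.6 to 57.3 CPM. B cell markers were also higher in *Prep*-/- M0, at 8.66 to 11.5 CPM over 3 genes with a row against 3.01 to 4.79 CPM, and *Cd79a* and *Ms4a1* were at 0 there. The part of these lists, or of the macrophage markers given above, in the differences between genotypes was not tested.

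**Figure D3:**
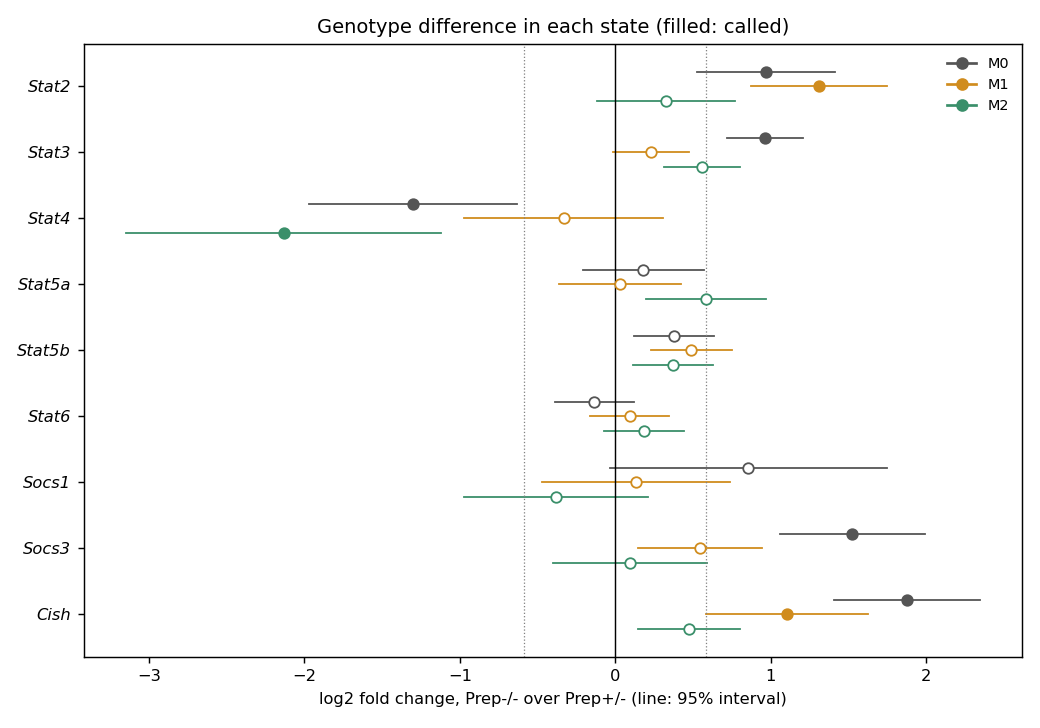
Log2 fold change of Prep-/- over Prep+/- for the 9 members in M0 (grey), M1 (orange) and M2 (green), from the edgeR fit on 18 libraries. Lines are 95% intervals, filled points passed the criteria, and dotted lines mark 1.5-fold. Cish (1.88) and Socs3 (1.53) in M0 lie farthest right and Stat4 in M2 (-2.13) farthest left.

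LPS raised *Socs3* more than any other member, and *Socs1* and *Stat2* with it, in both genotypes. In *Prep*+/- BMDMs 4 of 9 members rose (*Stat2*, *Stat3*, *Socs1* and *Socs3*) and 0 fell, against 16.7% of all genes called higher and 20.9% called lower (1 was lower at an unadjusted edgeR p under 0.05, and DESeq2 called 0 lower). In *Prep*-/- BMDMs 4 of 9 rose (*Stat2*, *Stat4*, *Socs1* and *Socs3*) and 1 fell (*Cish*), against 20.9% and 21.0%. *Socs3* rose 118-fold in *Prep*+/- (log2 6.89 ± 0.25 (SE), adjusted p = 6.74e-12) and 60.0-fold in *Prep*-/- (log2 5.91 ± 0.24 (SE), adjusted p = 2.18e-11). *Socs1* rose by 4.89 ± 0.37 (SE) on the log2 scale in *Prep*+/- (adjusted p = 2.09e-08) and by 4.17 ± 0.35 (SE) in *Prep*-/- (adjusted p = 6.03e-08). The factor *Stat2* rose 5.66-fold (log2 2.50 ± 0.22 (SE)) in *Prep*+/- and 7.17-fold (log2 2.84 ± 0.22 (SE)) in *Prep*-/-. The calls of *Socs3*, *Socs1* and *Stat2* held under each of 16 alternatives in both genotypes, total count scaling included.

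Other members moved less with LPS, and some of these calls depended on the scale or on single libraries. *Stat3* rose 1.96-fold in *Prep*+/- (log2 0.97 ± 0.12 (SE), adjusted p = 2.64e-06), but by total count the log2 fold change was 0.51 and under the fold criterion. In *Prep*-/- it had a log2 fold change of 0.24 ± 0.11 (SE) (adjusted p = 0.0845), which turned to -0.02 by total count. *Stat4* rose 2.79-fold in *Prep*-/- (log2 1.48 ± 0.32 (SE), adjusted p = 0.000827) and stood at a log2 fold change of 0.51 ± 0.30 (SE) in *Prep*+/- (adjusted p = 0.169). *Cish* fell in *Prep*-/- (log2 -0.65 ± 0.20 (SE), adjusted p = 0.0118). That call was lost when replicate numbers were blocked in a fit on these groups alone (log2 -0.69, adjusted p = 0.0561) and without replicate 1 of *Prep*-/- M0 (-0.57, adjusted p = 0.0443). It was also lost with glmTreat, a test against a fold of 1.5. In *Prep*+/- *Cish* had a log2 fold change of 0.12 ± 0.27 (SE) (adjusted p = 0.753). On all libraries neither gene was shown to respond differently by genotype, with interactions of 0.97 ± 0.44 (SE) for *Stat4* (adjusted p = 0.114) and -0.77 ± 0.34 (SE) for *Cish* (adjusted p = 0.108). That of *Stat4* was called without replicate 1 of *Prep*-/- M0 (1.52, adjusted p = 0.0100). That of *Cish* was called without replicate 2 of *Prep*+/- M0 (-1.04) or without replicate 1 of *Prep*+/- M1. *Stat5a*, *Stat5b* and *Stat6* were not called in either genotype, with log2 fold changes between -0.27 and 0.42, although total count scaling called *Stat5b* lower in *Prep*+/- (-0.72, adjusted p = 0.000221). The rise of *Stat6* in *Prep*-/- (log2 0.42 ± 0.12 (SE), adjusted p = 0.00687) passed on p but not on fold.

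IL-4 and IL-13 raised *Socs1* and *Cish* and lowered *Stat4* in both genotypes. In *Prep*+/- BMDMs 2 of 9 members rose and 1 fell, against 6.09% of all genes called higher and 6.77% called lower. In *Prep*-/- BMDMs 3 rose and 3 fell, against 14.7% and 15.5%. *Socs1* rose 83.6-fold in *Prep*+/- (log2 6.39 ± 0.38 (SE), adjusted p = 4.63e-09) and 35.5-fold in *Prep*-/- (log2 5.15 ± 0.36 (SE), adjusted p = 1.19e-08). The difference between these rises did not pass (interaction -1.23 ± 0.51 (SE), adjusted p = 0.135). Its M0 raw counts were low, at 13, 44 and 24 in *Prep*+/- and 55, 20 and 58 in *Prep*-/-. *Cish* rose 55.2-fold (log2 5.79 ± 0.21 (SE), adjusted p = 1.4e-11) and 20.9-fold (log2 4.38 ± 0.19 (SE), adjusted p = 4.69e-11). *Stat4* fell 5.91-fold (log2 -2.56 ± 0.34 (SE), adjusted p = 4.51e-05) and 10.5-fold (log2 -3.39 ± 0.44 (SE), adjusted p = 1.37e-05). *Stat6* itself, the factor these cytokines act through, had log2 fold changes of -0.16 ± 0.12 (SE) and 0.16 ± 0.12 (SE) and was not called.

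In *Prep*-/- BMDMs alone, *Socs3* also fell with IL-4 and IL-13 (2.68-fold, log2 -1.42 ± 0.22 (SE), adjusted p = 7.79e-05), while in *Prep*+/- its log2 fold change was 0.00 ± 0.23 (SE) (adjusted p = 0.994). Without replicate 3 of *Prep*-/- M0 the fall was -1.71. *Stat2* fell in *Prep*-/- at log2 -0.62 ± 0.21 (SE) (adjusted p = 0.0238). That call was narrow: it was lost in a fit on these groups alone (-0.62, adjusted p = 0.0734), without replicate 1 (-0.48) or replicate 2 (-0.57) of *Prep*-/- M0, and without the outlying replicate 3 of *Prep*-/- M2 (-0.48). With glmTreat it was lost as well. *Stat5a* rose in *Prep*-/- at log2 0.68 ± 0.18 (SE) (adjusted p = 0.00616) although its libraries overlapped. The call was lost without replicate 1 (0.51) or replicate 2 (0.52) of *Prep*-/- M2 and in a fit on these groups alone (0.68, adjusted p = 0.093). A replicate block in that fit and glmTreat also ended it. In *Prep*+/-, *Stat2* stood at log2 0.03 ± 0.21 (SE) (adjusted p = 0.950) and *Stat5a* at 0.28 ± 0.18 (SE) (adjusted p = 0.318). On all libraries neither gene was shown to respond differently by genotype. *Stat3* had a log2 fold change of -0.45 ± 0.12 (SE) in *Prep*-/-, which passed on p (0.00485, adjusted) but not on fold.

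**Figure D4:**
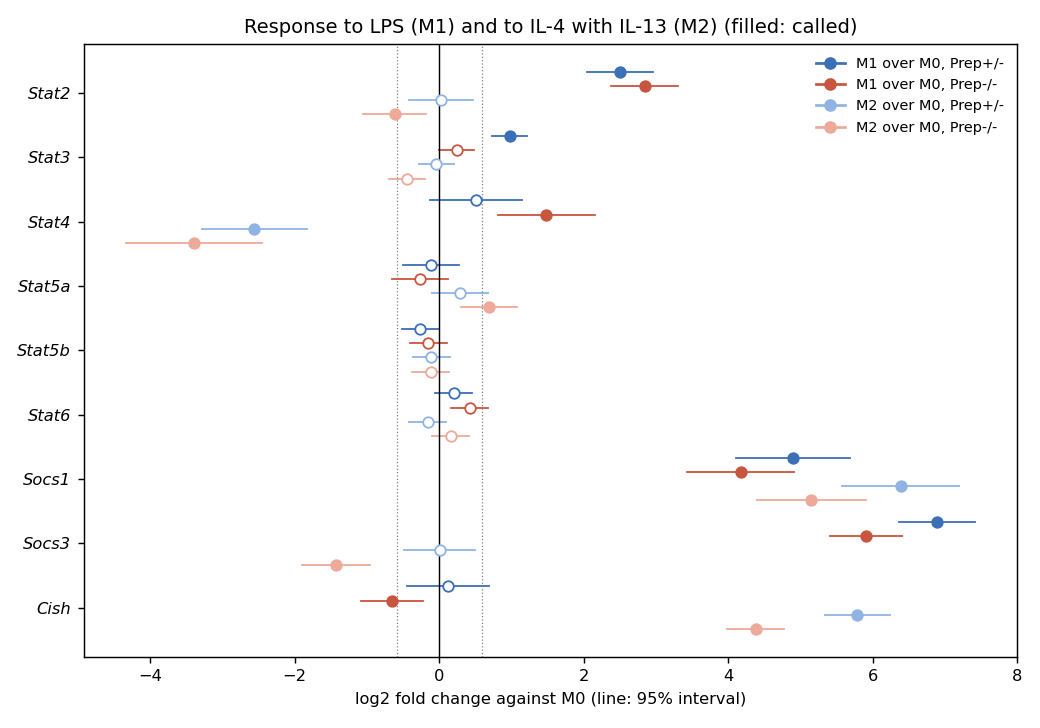
Log2 fold change of M1 and of M2 against M0 for the 9 members, dark symbols for M1 and pale ones for M2, blue for Prep+/- and red for Prep-/-. Lines are 95% intervals, filled points passed the criteria and dotted lines mark 1.5-fold. Socs3 stands at 6.89 and 5.91 for M1, and Socs1 and Cish lie between 4.38 and 6.39 for M2. The M1 and M2 contrasts share the M0 libraries.

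The 2 interaction tests asked whether the genotype difference itself changed with stimulation. For 2 of 9 members it was smaller in M1 than in M0, *Socs3* (log2 -0.98 ± 0.29 (SE), adjusted p = 0.0212) and *Stat3* (log2 -0.73 ± 0.16 (SE), adjusted p = 0.00444), against 21.1% of all genes called in either direction. Neither passed by total count scaling, where *Socs3* had -0.79 (adjusted p = 0.0647) and *Stat3* -0.53 (adjusted p = 0.0207), the latter under the fold criterion. For 2 of 9 members it was smaller in M2 than in M0, *Socs3* (log2 -1.43 ± 0.32 (SE), adjusted p = 0.0122) and *Cish* (log2 -1.40 ± 0.27 (SE), adjusted p = 0.00578), against 8.66% of all genes, and both passed by total count scaling. With glmTreat, which tests against a fold of 1.5, neither passed (adjusted p = 0.114 for *Socs3* and 0.0808 for *Cish*). The M2 interaction of *Stat5a* did not pass on all libraries (0.40 ± 0.26 (SE), adjusted p = 0.348). Without the outlying *Prep*-/- M2 library it was called, at 0.66 (adjusted p = 0.0172), beside 3.33% of all genes called in that direction. *Stat2* had interaction values of 0.34 ± 0.29 (SE) for M1 (adjusted p = 0.411) and -0.64 ± 0.29 (SE) for M2 (adjusted p = 0.178), so its calls in M0 and M1 and not in M2 were not shown to differ. For *Stat4* the values were 0.97 ± 0.44 (SE) (adjusted p = 0.114) and -0.83 ± 0.58 (SE) (adjusted p = 0.394). *Socs1* had -0.72 ± 0.51 (SE) for M1 (adjusted p = 0.315) and -1.23 ± 0.51 (SE) for M2 (adjusted p = 0.135). Its M2 value was called only without replicate 2 of *Prep*-/- M0 (adjusted p = 0.0306). Both interaction tests share the M0 libraries with the contrasts above.

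The rest of the pathway was described with 103 genes in 9 lists, of which 92 were tested. In the knockout contrast of unstimulated cells 36 of 92 were higher and 9 lower. The numbers were 26 and 9 after LPS and 17 and 4 after IL-4 and IL-13, beside the shares of all genes given above. Without the outlying replicate 3 of the group, the numbers were 40 and 7 of 93 tested in M0, and 20 and 9 of 92 in M2. The lists were drawn up from general knowledge with earlier results of these data known, and are described by counts and medians only.

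Upstream of the STAT factors, 1 of 4 Janus kinases, *Jak1*, was higher in M0 (log2 0.65 ± 0.18 (SE)), with 2602, 2884 and 3309 normalized counts in *Prep*+/- and 5441, 5459 and 2919 in *Prep*-/-. The last of these, the outlying replicate 3, lay among the controls. Without it *Jak1* was at 0.88, and *Jak2* (0.62) and *Tyk2* (0.65) were called higher as well. In M1, 3 of 4 were higher in the knockout: *Jak2* (log2 0.89 ± 0.21 (SE)), *Tyk2* (log2 0.67 ± 0.14 (SE)) and *Jak3* (log2 0.62 ± 0.14 (SE)), with a list median of 0.64. *Jak2*, the kinase of the GM-CSF and interferon gamma receptors, had 2847, 2304 and 2355 normalized counts in *Prep*+/- M1 and 5656, 4217 and 3995 in *Prep*-/- M1, and LPS itself raised it 5.05-fold and 7.27-fold. In M2, 0 of 4 were called and 2 were higher at an unadjusted edgeR p under 0.05.

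Many cytokine receptors differed by genotype. Of 22 tested, 12 were higher and 1 lower without stimulation, 6 and 0 with LPS, and 9 and 0 with IL-4 and IL-13 (at an unadjusted edgeR p under 0.05, 0 were lower in M1 and 1 in M2), with medians of 0.72, 0.46 and 0.49. *Csf3r*, the G-CSF receptor, which signals through STAT3, had 412, 380.0 and 316 normalized counts in *Prep*+/- M0 against 2519, 1859 and 854 in *Prep*-/- M0 (log2 2.24 ± 0.36 (SE)). It was also higher in M1 (log2 1.17 ± 0.34 (SE)) and in M2 (log2 2.26 ± 0.35 (SE)), where the outlying knockout library had 2179 against 5098 and 5688 in its replicates. *Lifr* (log2 2.02 ± 0.27 (SE)) and *Il10ra* (log2 1.84 ± 0.22 (SE)), the receptors for LIF and IL-10, led the rest in M0. *Il6st*, which encodes the shared chain gp130 that SOCS3 binds, was higher in all 3 states, at 0.78, 1.29 and 0.99. *Il15ra* was higher in M1 (log2 2.18 ± 0.31 (SE)) and *Il7r* in M2 (log2 1.25 ± 0.26 (SE)). *Csf3r* is also expressed by granulocytes, whose markers were higher in the knockout in M0 and lower in M1, as given above. In M2 these markers summed to 18.6 to 24.0 CPM in *Prep*+/- and 23.6 to 35.4 CPM in *Prep*-/-, which overlap. Their part in the *Csf3r* difference was not tested.

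The cytokine ligands moved in both directions in M1, where 3 of 11 were higher and 5 lower in the knockout. *Csf3*, the gene of G-CSF, had 2048, 3309.7 and 3207 normalized counts in *Prep*+/- M1 and 4.40, 25.6 and 60.3 in *Prep*-/- M1, a difference of -6.56 ± 0.47 (SE) on the log2 scale. *Il12b*, a subunit of IL-12 and so of the signal to STAT4, was lower (log2 -2.61 ± 0.34 (SE)), as was *Il6* (log2 -1.33 ± 0.40 (SE)), a cytokine that signals to STAT3. In M0, 3 of 11 were higher, *Il10* (log2 1.34 ± 0.38 (SE)), *Il15* (log2 1.29 ± 0.25 (SE)) and *Ebi3* (log2 0.79 ± 0.15 (SE)), and in M2 0 were called, with 1 higher at an unadjusted edgeR p under 0.05. Without the outlying M2 library *Il15* was called higher there (0.90).

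Downstream, the interferon-induced genes, which STAT2 and IRF9 switch on, had the largest median difference in M0 of the 9 lists. All 11 tested were higher in the knockout in M0, with a median log2 fold change of 2.44 beside 0.02 over all genes. *Ifit1*, an antiviral interferon-induced gene, had 119.6, 81.0 and 139 normalized counts in *Prep*+/- M0 against 1866, 979.7 and 1449 in *Prep*-/- M0 (log2 3.66 ± 0.50 (SE)). *Ifit3* (log2 3.75 ± 0.46 (SE)) and the chemokine gene *Cxcl10* (log2 3.36 ± 0.59 (SE)) were alike in size. In M1, 7 of 11 were higher (median 1.18), led by *Rsad2* (log2 3.49 ± 0.48 (SE)) and *Ifit2* (log2 3.29 ± 0.46 (SE)). In M2, 0 of 11 were higher and 1, *Oasl1*, named for this after its values were seen, was lower at log2 -1.44 ± 0.49 (SE) (median -0.17). IL-4 and IL-13 lowered all 11 in *Prep*-/- and 0 in *Prep*+/- (2 at an unadjusted edgeR p under 0.05), and the interaction was called for all 11 (10 without the outlying M2 library, where *Cxcl10* did not pass), with a median of -2.76. *Usp18*, an interferon-induced brake on the type I interferon receptor, had the largest knockout difference in M0 among the other negative regulators (log2 1.79 ± 0.29 (SE)), of which 2 of 12 were higher, and 0 of 12 were called in M1 or M2 (3 higher and 0 lower in M1, and 3 and 1 in M2, at an unadjusted edgeR p under 0.05). Without the outlying replicate 3 of the group, 3 of these 12 were called higher in M0 and 1 in M2.

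The STAT3 targets were mixed in M0, with 4 of 9 higher and 1 lower, including *Bcl3* (log2 1.44 ± 0.21 (SE)), *Nfil3* (log2 1.34 ± 0.19 (SE)) and the lower *Fos* (log2 -1.45 ± 0.44 (SE)). Without the outlying M0 library 3 of 9 were higher and 1 lower. LPS raised 8 of 9 in both genotypes. Of 8 STAT5 targets, 4 were lower in M0, 4 did not pass and 0 were higher, or 1 at an unadjusted edgeR p under 0.05 (median -1.20). *Ccnd1*, the gene of cyclin D1, had 3444, 7469.8 and 9509 normalized counts in *Prep*+/- M0 against 479, 216 and 451 in *Prep*-/- M0 (log2 -4.16 ± 0.67 (SE)), and the survival gene *Bcl2l1* was also lower (log2 -1.91 ± 0.44 (SE)). These genes have other regulators as well. In M1, 2 of the 8 STAT5 targets were higher and 2 lower (median -0.32). The M1 interaction was called upward for 4 and downward for 2, beside 21.1% of all genes in either direction. In M2, *Ccnd1* had 237 and 303 in 2 knockout libraries and 2198 in the outlying replicate 3. Without that library 4 of 8 were lower and 1 higher in M2, in place of 1 and 1, with *Ccnd1* at -4.36 in place of -2.61 and *Bcl2l1* at -1.53 in place of -0.49. The STAT6 targets responded to IL-4 and IL-13 in both genotypes, with 11 of 12 higher in *Prep*+/- and 12 of 12 in *Prep*-/-. The latter was 11 of 12 without the outlying M2 library and 12 of 13 without the outlying M0 library. Between genotypes in M2, 4 of 12 were higher and 2 lower, with *Arg1* lower (log2 -2.30 ± 0.26 (SE)) and *Ccl24* higher (log2 2.09 ± 0.35 (SE)). Both genes were already called in the same direction in M0, at -1.58 and 2.69. In M0, 3 of 12 were higher and 3 lower, and in M1 2 and 3. The M2 interaction was called upward for 2 and downward for 1, beside 8.66% of all genes in either direction.

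Of the family members outside the rule, *Socs6* was higher in the knockout in all 3 states (log2 1.12 ± 0.14 (SE), 0.80 ± 0.14 (SE) and 1.01 ± 0.14 (SE)) and *Socs7* in M1 (log2 0.79 ± 0.15 (SE)). LPS lowered *Socs6* and IL-4 with IL-13 raised it in both genotypes, to 1886, 1911 and 1740.4 normalized counts in *Prep*+/- M2 and 3783, 3773 and 3592 in *Prep*-/- M2.

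**Figure D5:**
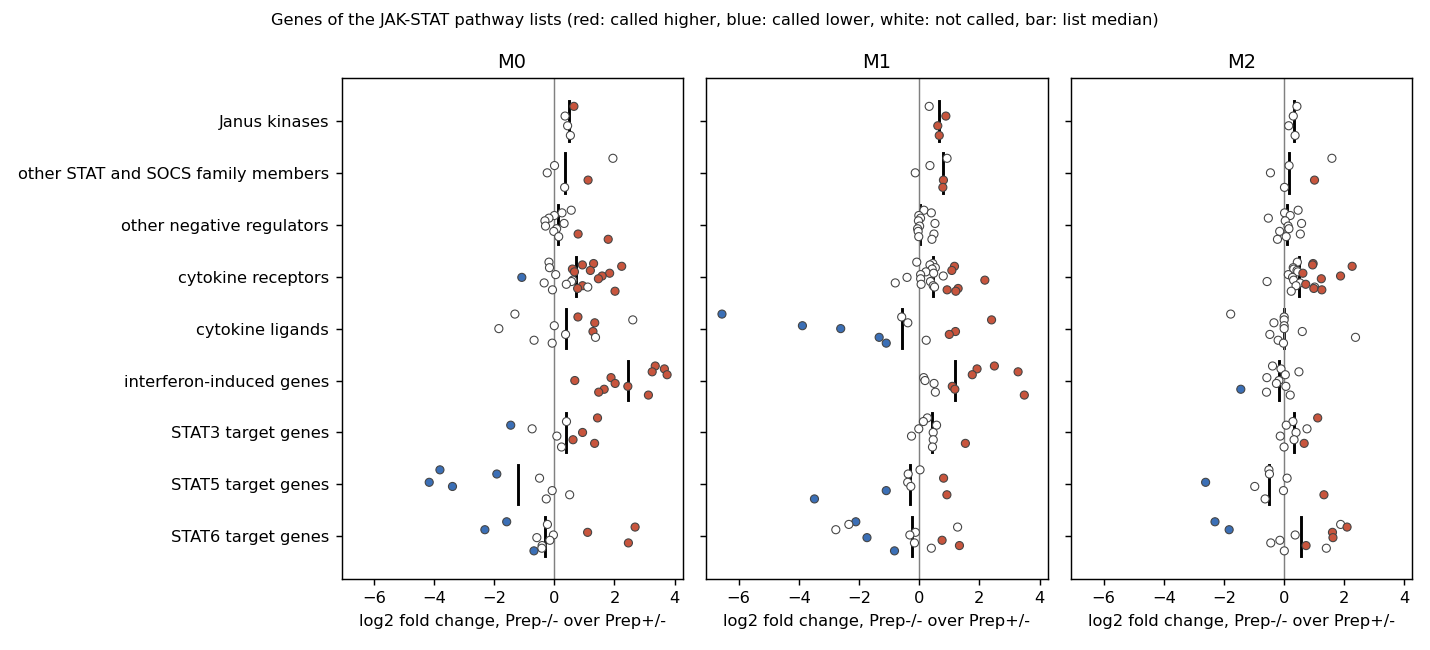
Log2 fold change of Prep-/- over Prep+/- for the 92 tested genes of 9 JAK-STAT lists in M0, M1 and M2. Red and blue points passed the criteria, white points did not, and black bars are list medians. The 11 interferon-induced genes all lie right of 0 in M0 (median 2.44) and around 0 in M2 (median -0.17).

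As a description of pattern, the genes with the highest Pearson correlation of log2 CPM with each member over the 18 libraries were sought among 9601 genes with a mean of at least 5 CPM. The libraries fall into 6 groups and share their group differences, so the values are given with no p. *Stat2* was closest to *Adar* (0.99), *Herc6* (0.99) and *Znfx1* (0.99), and *Stat3* to *Arap1* (0.99), *Gbp7* (0.98) and *Ifitm2* (0.97). *Stat4* was closest to *Cdc42bpg* (0.98), *Smad1* (0.96) and *Ampd3* (0.96). *Socs3* was closest to the complement gene *Cfb* (0.99), to *Hp* (0.99) and to *Cxcl9* (0.99), *Socs1* to *Eif2b2* (0.95), *Rnf19b* (0.95) and *Acot9* (0.94), and *Cish* to *Chil3* (0.97), *Smap2* (0.97) and *Rps6kc1* (0.97). For the flatter genes the values were lower, with *Gpcpd1* at 0.91 for *Stat5a*, *Klhl17* at 0.93 for *Stat5b* and *Btaf1* at 0.96 for *Stat6*.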

How the data were processed

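Bone marrow-derived macrophages were profiled by stranded mRNA sequencing in 18 libraries, 3 in each of 6 groups. According to the labels and methods, the authors trimmed reads with Trimmomatic 0.36 and aligned them to GRCm39 with HISAT2 2.2.1.0. The methods then have the reads assembled into transcripts with StringTie, and count tables made from the result. Raw counts per gene were deposited. The annotation release and the strand setting of the counting were not given in the sources used here. The totals of 19068237 to 22598279 counts limit precision for *Stat4* in M2 most.

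Groups came from the sample labels. Genes were filtered with filterByExpr, which left 12021 of 16314, and all libraries were fitted together with edgeR 4.0.16 (R 4.3.3) by TMM scaling and the quasi-likelihood test. Knockout contrasts in each state, stimulation contrasts in each genotype and 2 interactions were taken, with Benjamini-Hochberg adjustment over all tested genes and a call at an adjusted p under 0.05 with a fold over 1.5. The SE was the log2 fold change over the root of F. The functions were tested on simulated data. The members and lists were chosen with earlier results of these data known. Named genes were the members, *Prep*, up to 3 called genes per list and comparison with the largest change and a mean of at least 5 CPM, and the 3 genes most correlated with each member. A further listed gene is not reported here.

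Alternatives were DESeq2 1.42.0, RLE size factors, other filters, the p criterion alone, glmTreat, the compared groups alone, a replicate block, each replicate left out, and, added after the data were seen, total count scaling and the pathway lists without either outlying library. Deviations from group means correlated over 0.1 for each replicate number in 2 comparisons. These were the knockout contrast in M2 (0.249, 0.255 and 0.462) and M1 against M0 in *Prep*-/- (0.201, 0.169 and 0.259). Whether replicate numbers mark paired samples was not given, and these correlations do not show it. Positions are from GENCODE M39, and promoters from a RefSeq table for GRCm38.p6 were placed on GRCm39 by exact match.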

Additional observations from a re-analysis of the deposited data

Results flagged for a closer look

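In 4 cases the difference between *Prep*-/- and *Prep*+/- itself differed between states by an edgeR interaction test. These are 2 of 9 members for M1, beside 21.1% of all tested genes, and 2 of 9 for M2, beside 8.66%, so the M1 count is near the background. The knockout difference of *Socs3* was smaller in M1 than in M0 by -0.98 on the log2 scale, and that of *Stat3* by -0.73. The knockout difference of *Cish* was smaller in M2 than in M0 by -1.40, and that of *Socs3* by -1.43. All 4 use the same M0 libraries, in which these genes were higher in every knockout library than in any control library. Those for M1 lost their calls by total count scaling, and that of *Socs3* in M1 also without replicate 3 of *Prep*+/- M0 or replicate 1 of *Prep*-/- M0, with a range of -1.26 to -0.77 over libraries left out. With glmTreat none of the 4 passed. Without the outlying replicate 3 of *Prep*-/- M0, 2 members were still called in each interaction.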

How the results depend on the processing

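Of 1404 member values recomputed under alternatives, 1325 kept their direction and side of the threshold, 24 lost a call, 25 gained one and 30 changed sign, and the last were all uncalled. The number of members called in the knockout contrast in M2 was 1, against 2 with DESeq2, 2 with RLE size factors, 5 on p alone and 1 to 4 with each replicate left out. In M1 it was 2, against 4 on p alone and 1 with glmTreat, and 2 to 3 with replicates left out. For the M1 interaction it was 2, against 0 with glmTreat, 0 by total count and 1 to 3 with replicates left out, and for the M2 interaction 2, against 0 with glmTreat and 2 to 3. The other counts ranged from 5 to 6 (knockout in M0), 4 to 4 and 4 to 5 (M1 against M0 in *Prep*+/- and *Prep*-/-), and 3 to 3 and 5 to 6 (M2 against M0) with replicates left out. Sign changes were as follows, in log2 fold change. *Stat5a* in the M1 knockout contrast was -0.000428 with DESeq2 and -0.000415 with RLE, and ranged from -0.0337 to 0.067 with replicates left out. *Socs3* in M2 against M0 in *Prep*+/- was -0.0146 with DESeq2, -0.0146 with RLE, -0.00611 with a filter of 1 CPM in 3 libraries and -0.0928 by total count, and ranged from -0.131 to 0.117. The M2 interaction of *Stat5b* was 0.00514 with DESeq2 and 0.0054 with RLE, and ranged from -0.114 to 0.152. With replicates left out, *Cish* in M1 against M0 in *Prep*+/- ranged from -0.129 to 0.407, *Stat2* in M2 against M0 in *Prep*+/- from -0.133 to 0.126, *Socs1* in the M1 knockout contrast from -0.0402 to 0.301, and *Stat5b* in M2 against M0 in *Prep*-/- from -0.246 to 0.0197. By total count, the sign turned for *Socs3* in the M2 knockout contrast (-0.0520), *Stat6* and *Cish* in M1 against M0 in *Prep*+/- (-0.266 and -0.344), *Stat3* in M1 against M0 in *Prep*-/- (-0.0175), *Stat2* in M2 against M0 in *Prep*+/- (-0.0746) and *Stat5a* in the M1 interaction (0.0496). Of calls, glmTreat lost *Stat2* in the M0 and *Cish* in the M1 knockout contrast. In *Prep*-/- it also lost *Cish* in M1 against M0, and *Stat2* and *Stat5a* in M2 against M0. The replicate block in a fit on the compared groups gave 5, 2, 1, 4, 4, 3, 5, 2 and 2 members called in the 9 comparisons, in the order of the report. Among the comparisons where every replicate number correlated, it ended only the call of *Cish* in M1 against M0 in *Prep*-/- (-0.69, adjusted p = 0.0561). The block with all 18 libraries changed no count. The causes were not tested. *Stat4* in M2, with raw counts under 10 in *Prep*-/-, is the member that depth limits most.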
